A study of Mus musculus with 11 samples.

Results

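The genes described are 38 markers of blood and lymph vessel endothelium, the cell layer that lines vessels, taken by symbol from the table of 24974 genes. All 38 were found in the table, and they were set apart as angiogenic tip genes, resting vessel genes, lymphatic genes and further groups by their known roles. The study asked how loss of the homeobox factor Dlx3, which acts in epidermis and hair, bears on skin tumors started by DMBA, a polycyclic hydrocarbon that mutates DNA. RNA sequencing was done on 11 mouse libraries. The groups were tumors of Dlx3 conditional knockout (KO) mice (n = 5), whole skin of Dlx3 KO mice without lesions (n = 3) and whole skin of wild-type (WT) mice (n = 3). All mice, the WT ones included, had received DMBA on the back in 3 doses of 100 µg in 200 µl, given at intervals of 1 week, and tissue was taken at week 31. The promoter that drives the deletion, the age at the start and the deleted exon are not given in the sources used here. No label ties a tumor or a skin to an animal, so tumors may share an animal, and p-values here rest on the spread between these samples only.

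Vessels sprout when growth factors of the VEGF family act on receptors of endothelial cells. Tip cells at the front of the sprout then make apelin, endocan, the Notch ligand Dll4 and angiopoietin 2. In resting vessels, angiopoietin 1 from the surrounding cells acts on the receptor Tek and holds the lining closed. Lymph vessels are set up by the transcription factor Prox1 and take up fluid and immune cells from the skin.

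Of the 38 genes, 19 had a promoter window in RefSeq (GRCm38.p6, 300 bases around the annotated start). The windows of Tek and Flt1, 2 of the 3 genes called lower in tumors against Dlx3 KO skin (the third, Lyve1, had no matched window), and of the 2 tip genes with the largest positive difference are printed here, so that the regulatory sequence stands beside the measurements. They lie at chr4:94739039-94739338 (plus strand, Tek), chr5:147725962-147726261 (minus strand, Flt1), chr13:113209409-113209708 (plus strand, Esm1) and chrX:48034804-48035103 (minus strand, Apln). Each reads 5′ to 3′ on the strand of the gene, and capitals mark GGAA on either strand, the core letters that ETS factors such as the members Erg and Fli1 are known to bind.
Tek: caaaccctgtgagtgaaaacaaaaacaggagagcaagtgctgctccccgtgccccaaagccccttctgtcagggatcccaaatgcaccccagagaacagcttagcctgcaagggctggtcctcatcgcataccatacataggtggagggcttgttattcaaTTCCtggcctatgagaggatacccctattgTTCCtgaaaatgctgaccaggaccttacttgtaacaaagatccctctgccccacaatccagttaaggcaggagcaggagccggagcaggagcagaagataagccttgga
Flt1: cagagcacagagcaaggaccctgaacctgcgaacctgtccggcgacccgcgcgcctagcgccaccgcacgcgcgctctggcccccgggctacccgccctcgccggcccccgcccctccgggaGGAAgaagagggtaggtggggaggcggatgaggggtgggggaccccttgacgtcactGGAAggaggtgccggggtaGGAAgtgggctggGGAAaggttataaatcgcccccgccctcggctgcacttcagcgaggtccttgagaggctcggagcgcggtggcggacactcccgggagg
Esm1: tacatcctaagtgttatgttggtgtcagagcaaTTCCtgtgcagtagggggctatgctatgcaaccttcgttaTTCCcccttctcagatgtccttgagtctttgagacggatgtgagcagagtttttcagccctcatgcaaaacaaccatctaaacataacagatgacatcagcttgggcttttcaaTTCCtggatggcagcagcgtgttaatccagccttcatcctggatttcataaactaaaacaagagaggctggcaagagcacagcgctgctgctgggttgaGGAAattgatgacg
Apln: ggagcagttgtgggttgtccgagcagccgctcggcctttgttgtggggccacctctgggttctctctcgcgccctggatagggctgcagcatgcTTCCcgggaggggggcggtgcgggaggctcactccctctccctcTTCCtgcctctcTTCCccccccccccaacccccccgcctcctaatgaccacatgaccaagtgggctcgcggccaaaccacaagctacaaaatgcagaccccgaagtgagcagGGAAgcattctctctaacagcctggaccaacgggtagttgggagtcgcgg
GGAA stood at 2 places in the Tek window and at 4 in each of the windows of Flt1, Esm1 and Apln. It is a common string, present in 96.0% of 32851 mouse promoter windows of this length and in 23 of the 24 windows of the matched genes. The longer AGGAAG was in 11 of these 24 windows and in 35.4% of all windows. CGGAAG was in 1 of the 24 and in 16.9% of all, and the SOX-type strings ACAATG and AACAAT were in 2 and 4 of the 24, against 12.6% and 10.7% of all. Every string was searched on both strands, and AGGAAG and CGGAAG contain GGAA. These matches describe letters and show no binding.

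Values are RPKM (reads relative to gene length and to the mapped reads of the library), so that levels of different genes can be set side by side. The libraries had 29265111 to 75707445 alignments. Dlx3 itself was at 1.34 to 7.61 RPKM in tumors, at 4.08 to 8.88 RPKM in Dlx3 KO skin and at 49.9, 7.35 and 89.9 RPKM in WT skins 1 to 3 by label. Dlx3 in the library labelled WT skin 2 was therefore inside the range of Dlx3 KO skin, and each comparison with WT skin is also given without it where the call changes. Xist, the RNA of the silenced X chromosome, was at 0.0941 to 0.616 RPKM in tumors 3 and 4 and WT skins 1 and 3 and at 10.1 to 22.0 RPKM in the other 7 libraries. Rn45s, the precursor of ribosomal RNA, was at 11800 RPKM in tumor 5 and 10000 RPKM in WT skin 1, against at most 3240 RPKM elsewhere. A sample sheet places tumor 5, Dlx3 KO skins 2 and 3 and all WT skins in the first sequencing run and the other 5 libraries in the second.

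The labelled tissues held endothelium by these genes: the pan-endothelial Pecam1, Cdh5, Tie1 and Esam were detected in all 11 libraries, at 1.75 RPKM or more. Summed over the 38 genes, vessel RNA came to 215.5, 111.9, 121.7, 188.9 and 64.79 RPKM in tumors 1 to 5. The sums were 230.8, 231.1 and 277.8 RPKM in Dlx3 KO skins 1 to 3 and 146.0, 232.3 and 223.5 RPKM in WT skins 1 to 3. All tumors were thus below all Dlx3 KO skins, while tumors 1 and 4 lay within the range of WT skin. In bulk tissue, fewer endothelial cells and less RNA per endothelial cell cannot be told apart.

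**Figure D1:**
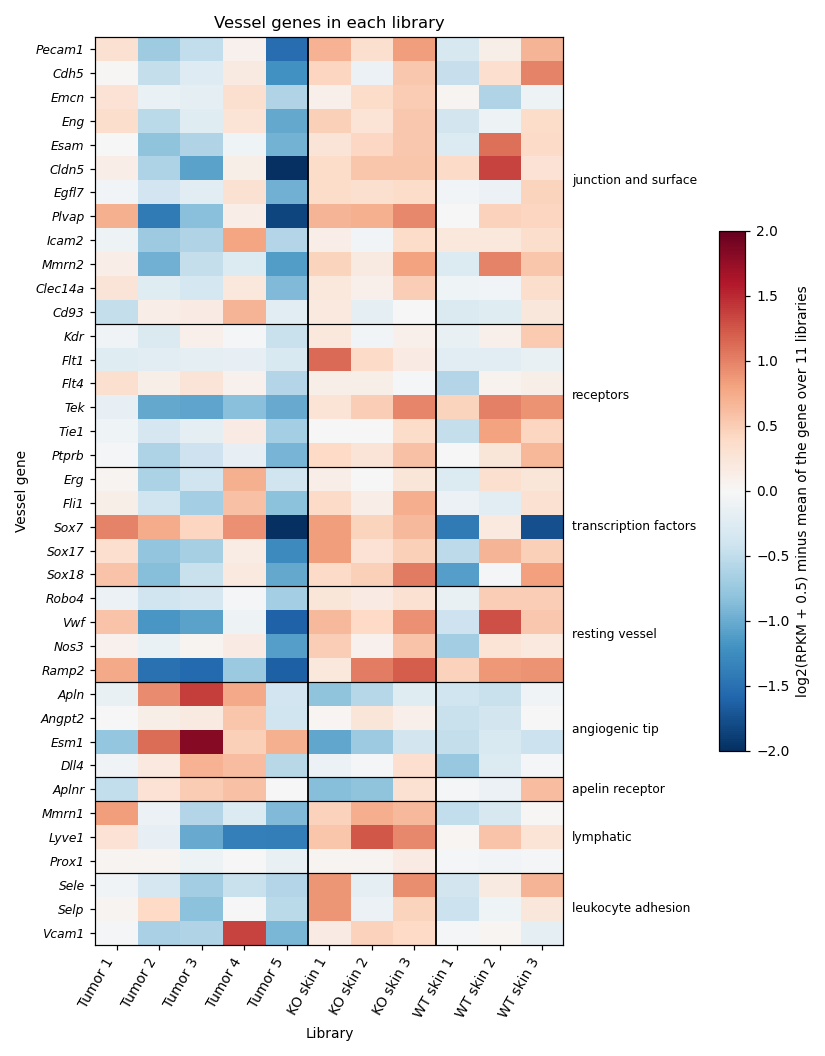
Level of each of the 38 vessel genes (rows, by role) in each library (columns: tumors, Dlx3 KO skin, WT skin), as log2(RPKM + 0.5) minus the mean of that gene over the 11 libraries. Tumor 5 is lowest among the tumors in 30 of 38 genes, and tumor 1 is highest among them in 18.

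What separates a tumor from skin of the same genotype was asked by comparing tumors with Dlx3 KO skin. Most vessel genes lay lower in tumors, but only 3 passed the test: the angiopoietin receptor Tek, the lymphatic receptor Lyve1 and the VEGF receptor Flt1. No vessel gene was called higher, though the tip genes Esm1 and Apln had positive differences. Of the 38 genes, 37 had a mean of at least 0.5 RPKM and were tested, while Prox1 was below it. With limma on log2(RPKM + 0.5), 3 of 37 were lower and 0 higher at an adjusted p under 0.05, against 6.56% lower and 0.998% higher of all 14233 genes tested. At an unadjusted p under 0.05 the counts were 16 lower and 2 higher of 37, where 3656 of all 14233 genes had such a p in either direction. The log2 fold change was below 0 in 32 of 37, with a median of -0.61, and the median of all genes was -0.23. Median-ratio and quantile scaling moved that median of all genes to 0.02 and 0.09, and 30 and 26 of the 37 vessel genes then stayed below 0. Every tumor was below every Dlx3 KO skin in 10 of 37 genes and above in 0, where 14.8% and 4.65% of all genes tested did so.

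**Figure D2:**
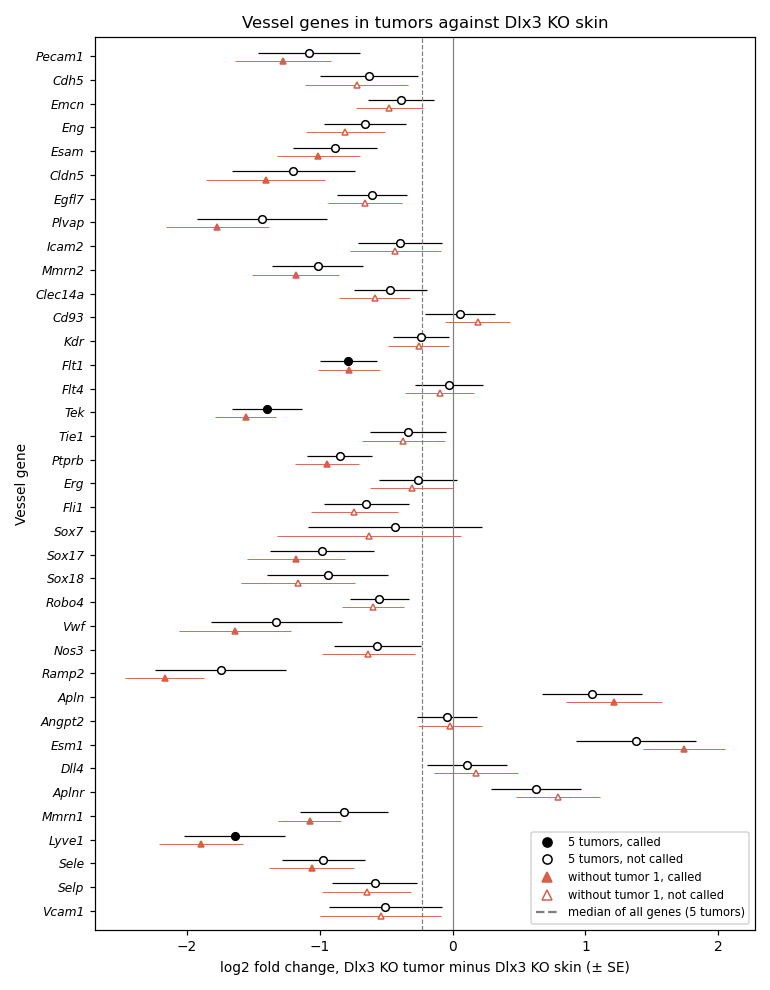
Log2 fold change of the 37 tested vessel genes on the log2(RPKM + 0.5) scale, with SE from limma, in tumor against Dlx3 KO skin. Black circles are the fit with all 5 tumors and red triangles the fit without tumor 1. The dashed line is the median of all genes tested with 5 tumors. Filled circles passed an adjusted p of 0.05 (Tek, Lyve1 and Flt1). Filled triangles passed it without tumor 1 (14 lower and 2 higher).

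Tek, also named Tie2, is the receptor of the angiopoietins (chr4:94739289-94874976, plus strand, GENCODE M21 on mm10). It was at 1.42, 0.557, 0.533, 0.712 and 0.575 RPKM in tumors 1 to 5 against 2.11, 2.53 and 3.71 RPKM in Dlx3 KO skin. All tumors lay below all skins, and tumor 1 was nearest to them. Tek averaged 0.760 ± 0.377 RPKM in tumors (SD, n = 5) and 2.78 ± 0.833 RPKM in Dlx3 KO skin (n = 3). Its log2 fold change was -1.40 ± 0.26 (limma SE, adjusted p = 0.00895). It fell in 10 of the 11 fits lacking 1 library and missed the threshold without Dlx3 KO skin 3 (adjusted p = 0.0689). It also missed it with the replicate number as a block (log2 fold change -1.33, adjusted p = 0.130). The runs alone give little, since the first holds 1 tumor, tumor 5, and the second 1 Dlx3 KO skin. The log2 fold change of Tek was -1.73 in the first and -1.05 in the second, where it did not pass.

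Flt1, the VEGF receptor 1 that binds VEGFA and placental growth factor (chr5:147561604-147726011, minus strand), was at 2.44, 2.48, 2.57, 2.63 and 2.33 RPKM in the tumors. In Dlx3 KO skin it had 7.18, 4.08 and 3.40 RPKM. The tumors hardly varied and the Dlx3 KO skins differed widely among themselves, with Dlx3 KO skin 1 far above the others. Flt1 passed narrowly (log2 fold change -0.79 ± 0.22, SE, limma adjusted p = 0.0492). Of the 11 fits without 1 library it passed only in that without tumor 1 (adjusted p = 0.0381). In the 3 WT skins Flt1 was at 2.53, 2.53 and 2.65 RPKM, overlapping the tumors.

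The other receptor genes did not pass. Kdr, the main signalling receptor for VEGFA, was at 1.49 ± 0.290 RPKM in tumors and 1.83 ± 0.209 RPKM in Dlx3 KO skin (adjusted p = 0.506), and the groups overlapped. The orphan receptor Tie1 was at 4.01 ± 0.958 and 5.13 ± 0.869 RPKM in tumors and Dlx3 KO skin (SD, n = 5 and 3, log2 fold change -0.34). Ptprb, the phosphatase that damps Tek signalling, was below every Dlx3 KO skin in every tumor. It had 1.07, 0.557, 0.717, 0.937 and 0.352 RPKM in tumors and 1.63, 1.44 and 1.93 RPKM in Dlx3 KO skin, and missed the threshold (log2 fold change -0.85 ± 0.24, SE, limma adjusted p = 0.058).

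Of the 7 resting vessel genes, among them Tek, Tie1 and Ptprb, 1 fell, 0 rose and all 7 had a log2 fold change below 0 (median -0.85). Quantile normalization left 6 of the 7 below 0. Ramp2, the subunit that makes the calcitonin receptor-like protein a receptor for adrenomedullin (chr11:101246028-101259546, plus strand), had 24.7 RPKM in tumor 1. Tumors 2 to 5 had 4.82, 4.55, 8.44 and 4.28 RPKM, and the Dlx3 KO skins had 16.7, 29.7 and 33.9 RPKM. Tumor 1 lay inside the range of the skins and the other 4 tumors well below it. The difference missed the threshold with all tumors (log2 fold change -1.75 ± 0.49, SE, limma adjusted p = 0.0541) and passed without tumor 1 (-2.17, adjusted p = 0.000712). An exon of Vps25 overlaps Ramp2 on the same strand, and Vps25 was at mean levels of 33.1, 31.4 and 28.9 RPKM in tumors, Dlx3 KO skin and WT skin, so shared reads cannot be set apart here.

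Vwf, the clotting factor stored by endothelium, was at 4.27, 0.944, 1.04, 2.52 and 0.557 RPKM in tumors and 4.56, 3.74 and 5.61 RPKM in Dlx3 KO skin (adjusted p = 0.121). Tumor 1 again lay with the skins. Robo4, a guidance receptor that steadies vessels, was at 0.944 to 1.77 RPKM in tumors and 2.09 to 2.38 RPKM in Dlx3 KO skin, without overlap (log2 fold change -0.55, adjusted p = 0.147). Nos3, the endothelial nitric oxide synthase, was at 1.66 ± 0.625 RPKM in tumors and 2.59 ± 0.542 RPKM in Dlx3 KO skin (SD, n = 5 and 3, adjusted p = 0.305). Nos3 is uncertain because the exons of Atg9b, at mean levels of 36.3 and 32.8 RPKM in tumors and Dlx3 KO skin, overlap it on the opposite strand, and no source used here states whether counting used the strand.

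**Figure D3:**
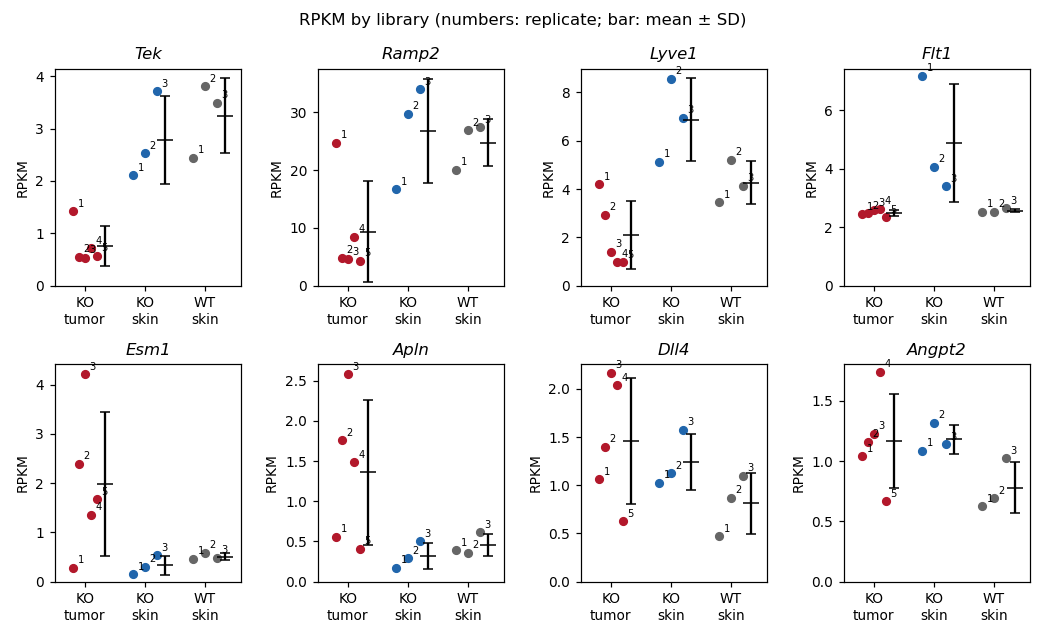
RPKM of 8 vessel genes in each library (points, numbered by replicate) with mean and SD of the group (bars), for tumors, Dlx3 KO skin and WT skin from left to right. Tek is below every skin in all 5 tumors, Ramp2 is high in tumor 1 alone among tumors, and Esm1 is highest in tumor 3 at 4.21 RPKM.

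None of the 4 angiogenic tip genes was called in either direction against Dlx3 KO skin. The log2 fold change was above 0 in 3 of them as deposited and in all 4 with median-ratio and quantile scaling. With the sequencing run as a term it was above 0 in Esm1 and Apln and below 0 in Dll4 (-0.065) and Angpt2 (-0.167). Esm1 encodes endocan, a proteoglycan of tip cells (chr13:113209659-113218098, plus strand). It was at 0.277, 2.40, 4.21, 1.35 and 1.68 RPKM in tumors against 0.147, 0.306 and 0.534 RPKM in Dlx3 KO skin. Tumors 2 to 5 lay above all skins and tumor 1 among them. The log2 fold change of Esm1 was 1.38 ± 0.45 (SE, limma adjusted p = 0.0872) and became 1.74 (adjusted p = 0.00296) without tumor 1.

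Apln encodes apelin, the peptide that tip cells send to neighbours (chrX:48025146-48034853, minus strand). It was at 0.559, 1.76, 2.58, 1.49 and 0.405 RPKM in tumors and at 0.170, 0.290 and 0.499 RPKM in Dlx3 KO skin. Tumor 5 lay among the skins and tumor 1 just above them. The log2 fold change was 1.05 ± 0.38 (SE, limma adjusted p = 0.110), and 1.22 (adjusted p = 0.0372) without tumor 1. Esm1 and Apln had means under 0.5 RPKM in Dlx3 KO skin and passed the filter through the tumors, so their place among the tested genes is not independent of being higher there. Their fold changes on the log2(RPKM + 0.5) scale understate a change at such low levels.

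Dll4, the ligand by which a tip cell restrains its neighbours, was at 1.06, 1.40, 2.17, 2.04 and 0.625 RPKM in tumors and 1.03, 1.12 and 1.58 RPKM in Dlx3 KO skin. Angpt2, the antagonist of angiopoietin 1 at Tek, was at 1.04, 1.16, 1.23, 1.74 and 0.667 RPKM in tumors and 1.08, 1.32 and 1.14 RPKM in Dlx3 KO skin. Both overlapped between the groups (adjusted p = 0.845 and 0.930). The apelin receptor Aplnr, given beside them, was at 0.567, 1.32, 1.62, 1.74 and 1.005 RPKM in tumors and 0.333, 0.355 and 1.35 RPKM in Dlx3 KO skin (adjusted p = 0.265).

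Among lymphatic genes, Lyve1 fell. Lyve1, the hyaluronan receptor of lymph vessel lining (chr7:110850607-110863239, minus strand), is also made by some tissue macrophages. It was at 4.20, 2.93, 1.40, 0.989 and 0.978 RPKM in the tumors against 5.12, 8.55 and 6.95 RPKM in Dlx3 KO skin. All tumors were below all Dlx3 KO skins (log2 fold change -1.64 ± 0.38, SE, limma adjusted p = 0.0264). The call was kept in 6 of 11 fits without 1 library and lost without any single Dlx3 KO skin or without tumor 3 or 4 (adjusted p = 0.0501 to 0.119). Macrophage and dendritic markers moved with it: 7 of 11 fell and 0 rose, and their summed level was 78.89 to 319.6 RPKM in tumors and 353.2 to 476.0 RPKM in Dlx3 KO skin. Their part in the level of Lyve1 was not tested.

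Mmrn1, an adhesive protein of lymph vessels and platelets, was at 1.61, 0.601, 0.289, 0.480 and 0.144 RPKM in tumors and 1.14, 1.46 and 1.37 RPKM in Dlx3 KO skin (adjusted p = 0.152). Tumor 1 was above all Dlx3 KO skins and the other 4 below them. Flt4, the receptor for VEGFC, was at 0.966, 0.771, 0.910, 0.748 and 0.281 RPKM in tumors and 0.773, 0.771 and 0.649 RPKM in Dlx3 KO skin (adjusted p = 0.956). Prox1 was at 0.118, 0.120, 0.0569, 0.0992 and 0.0379 RPKM in tumors, at 0.118, 0.121 and 0.168 RPKM in Dlx3 KO skin and at 0.0849, 0.0757 and 0.0877 RPKM in WT skin, below the filter and not tested. The factor that defines lymphatic identity was thus low in all groups. Of the lymphatic genes outside the 38, 6 were tested and 0 called, all below 0 (median log2 fold change -0.85), with Nr2f2 (-0.70), Pdpn (-0.94), Foxc2 (-0.76) and Itga9 (-0.67) having the smallest p.

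Junction and surface genes of the common endothelial program were below 0 in 11 of 12 without a call (median log2 fold change -0.65, and -0.38 and -0.36 with median-ratio and quantile scaling, the last with 10 of 12 below 0). Pecam1, the adhesion protein CD31, was at 12.8, 6.05, 7.20, 10.97 and 3.24 RPKM in tumors and 16.9, 12.9 and 18.8 RPKM in Dlx3 KO skin (log2 fold change -1.08 ± 0.38, SE, limma adjusted p = 0.108). Tumor 1 was just below the lowest skin. Plvap, which spans the diaphragms of leaky capillaries, was at 46.1, 10.1, 15.3, 30.6 and 7.46 RPKM in tumors and 44.7, 46.0 and 54.9 RPKM in Dlx3 KO skin. It had the highest level of the 38 genes in both groups. Its log2 fold change of -1.43 (adjusted p = 0.0967) became -1.77 (adjusted p = 0.00891) without tumor 1, which lay within the skins.

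Cldn5, the tight junction protein of vessels, was at 1.97 to 10.99 RPKM in tumors and 13.0 to 14.9 RPKM in Dlx3 KO skin. Esam, a junction adhesion molecule, was at 4.53 to 9.27 and 11.03 to 13.5 RPKM, and Mmrn2, of the vessel wall matrix, at 1.27 to 3.69 and 3.83 to 6.17 RPKM in tumors and Dlx3 KO skin. None of these 3 overlapped between the groups and none passed (adjusted p = 0.134, 0.109 and 0.0925). The cadherin Cdh5 overlapped, at 1.75 to 5.40 RPKM in tumors and 4.27 to 7.05 RPKM in Dlx3 KO skin. Egfl7, a secreted factor of vessels, did not overlap, at 5.70 to 14.4 RPKM in tumors and 14.5 to 14.97 RPKM in Dlx3 KO skin. Agpat2, at mean levels of 11.3 and 21.2 RPKM there, overlaps Egfl7 on the opposite strand, and Fpgs so overlaps Eng.

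The remaining surface genes overlapped between tumors and Dlx3 KO skin. They were the TGF-beta coreceptor Eng (9.14 ± 3.59 and 13.9 ± 1.40 RPKM), the sialomucin Emcn (4.83 ± 1.35 and 6.34 ± 0.964 RPKM) and the lectin Clec14a (0.798 ± 0.394 and 1.24 ± 0.258 RPKM). Icam2, a ligand of leukocyte integrins, was at 1.86 ± 1.22 and 2.37 ± 0.428 RPKM (SD, n = 5 and 3). Cd93, a lectin of growing vessels, was at 1.52 to 4.02 RPKM in tumors and 1.98 to 2.73 RPKM in Dlx3 KO skin, and was the single surface gene with a positive log2 fold change in the RPKM as deposited (0.05, adjusted p = 0.917).

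Of the 5 transcription factors 0 passed, and all had log2 fold changes below 0 (4 of 5 with quantile normalization). Sox17 and Sox18, which direct arterial and lymphatic fate, averaged 1.03 ± 0.702 and 5.83 ± 3.05 RPKM in tumors and 2.32 ± 0.565 and 10.8 ± 2.96 RPKM in Dlx3 KO skin (SD, n = 5 and 3). The ETS factors Erg and Fli1 averaged 1.38 ± 0.778 and 1.08 ± 0.676 RPKM in tumors and 1.63 ± 0.166 and 1.85 ± 0.497 RPKM in Dlx3 KO skin. Sox7, of the SOX family like Sox17 and Sox18, was at 20.6, 17.2, 13.8, 19.5 and 2.10 RPKM in tumors and 18.4, 13.9 and 16.2 RPKM in Dlx3 KO skin. It thus stood higher per length than Sox17 in every library.

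The adhesion molecules of inflamed vessels also gave 0 calls of 3. E-selectin, Sele, was at 0.383, 0.234, 0.0727, 0.178 and 0.115 RPKM in tumors and 1.22, 0.321 and 1.25 RPKM in Dlx3 KO skin (log2 fold change -0.97, adjusted p = 0.0826). Only tumor 1 reached the lowest skin. P-selectin, Selp, was at 1.06, 1.46, 0.344, 0.997 and 0.526 RPKM in tumors and 2.25, 0.878 and 1.54 RPKM in Dlx3 KO skin (adjusted p = 0.271). Vcam1, the ligand of leukocyte integrin alpha 4, was at 1.96, 1.10, 1.14, 5.87 and 0.822 RPKM in tumors and 2.30, 2.93 and 2.78 RPKM in Dlx3 KO skin (adjusted p = 0.478). Tumor 4 stood above all skins in Vcam1 and the other 4 below, and the summed level of 6 leukocyte genes was also highest in tumor 4, at 165.8 RPKM against 15.04 to 45.98 RPKM in the other tumors. Most of that sum was the B cell gene Cd79a (77.41 RPKM) and Coro1a (50.23 RPKM). The leukocyte marker Ptprc and the T cell gene Cd3e were highest in tumor 1 instead, at 2.818 and 2.518 RPKM there and 2.41 and 0.9129 RPKM in tumor 4. The part of leukocytes in the Vcam1 level was not tested.

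By the median over the 38 genes, vessel genes varied more among tumors than among skins. The median coefficient of variation was 48.5% in tumors, 19.4% in Dlx3 KO skin and 30.5% in WT skin. Not every gene went this way: Cdh5, Tie1 and Esam, among others, varied more in WT skin than in tumors, and Flt1 more in Dlx3 KO skin. The spread of all genes was not computed, so the difference is not shown to be particular to vessel genes. Tumor 1 lay below all 3 Dlx3 KO skins in 18 of 38 genes, tumor 2 in 28, tumor 3 in 30, tumor 4 in 18 and tumor 5 in 35. WT skins 1 to 3 did so in 31, 17 and 10 genes, so such counts are not particular to tumors. Tumor 5 and WT skin 1, with the highest counts, were also the libraries highest in Rn45s. The share of all genes that did so in each library was not counted. The count of calls depended on tumor 1. Without tumor 1, 14 of 37 genes were called lower and 2 higher against Dlx3 KO skin, where 17.7% and 2.42% of all genes tested were. The 14 were Cldn5, Esam, Flt1, Lyve1, Mmrn1, Mmrn2, Pecam1, Plvap, Ptprb, Ramp2, Sele, Sox17, Tek and Vwf, and the 2 higher were Apln and Esm1. Sele, with a mean of 0.503 RPKM over all libraries and 0.197 RPKM in tumors, passed the filter through the skins, so its place among the lower genes is not independent of being lower there. Without Dlx3 KO skin 3, 0 of the 37 vessel genes were called, where 2.19% of all genes tested were lower and 0.246% higher. Fibroblast and dermal matrix markers were also highest in tumor 1, at a summed 1767 RPKM against 179.0 to 980.7 RPKM in tumors 2 to 5.

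Other parts of the tissue moved between tumors and Dlx3 KO skin along with the vessel genes. All 14 skeletal muscle markers fell, with a summed 31.27 to 639.1 RPKM in tumors and 5841 to 12950 RPKM in Dlx3 KO skin. Adipocyte markers fell in 10 of 13 and rose in 0, with a summed 469.3 to 3021 RPKM in tumors and 1829 to 3843 RPKM in Dlx3 KO skin. Most of that sum in each tumor was Fabp4, at 302.8, 1250, 2984, 408.2 and 338.4 RPKM in tumors 1 to 5. Taken singly, 10 of the 13 were lower in every tumor than in every Dlx3 KO skin, as were 14.8% of all genes tested. Nerve and Schwann cell markers fell in 4 of 7, with 9.088 to 21.92 RPKM in tumors and 45.09 to 49.23 RPKM in Dlx3 KO skin. Keratinocyte markers fell in 0 and rose in 2 of 10, with 16470 to 48730 RPKM in tumors and 31430 to 32710 RPKM in Dlx3 KO skin. Fibroblast (10) and leukocyte (6) markers gave 0 calls, platelet markers fell in 1 of 5 tested and rose in 0, and red cell markers gave 0 of 7 tested. Summed red cell markers were 91.88 to 2785 RPKM in tumors and 4.780 to 334.7 RPKM in Dlx3 KO skin. Hbb-bt and Hbb-b2 of this list had the same value in every library, so that level entered the sum and the 7 tested more than once. No marker in these lists was at 0 in every library, and the part of any of these tissues in the vessel values was not tested.

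**Figure D4:**
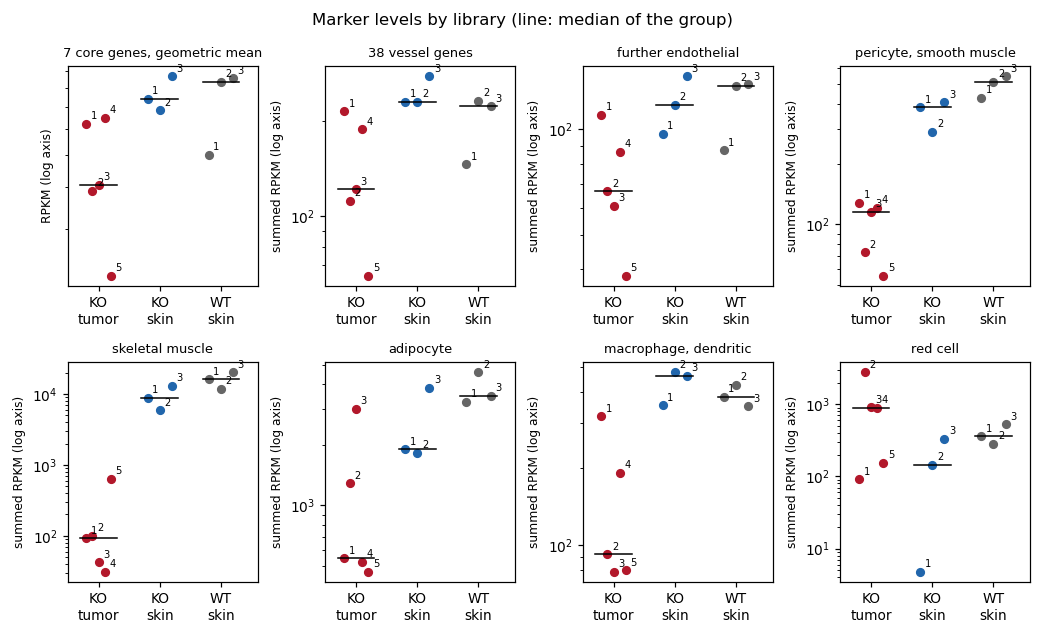
Level of the 7 core endothelial genes and summed RPKM of marker lists (log axes) in each library, numbered by replicate, with the median of each group as a line, for tumors, Dlx3 KO skin and WT skin. Skeletal muscle markers sum to at most 639.1 RPKM in tumors and at least 5841 RPKM in skin, while the vessel sums of tumors 1 and 4 lie within the WT skins. The pericyte sum of every skin is mostly Des, also a gene of skeletal muscle.

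Vessel growth factors, which are not among the 38, moved in both directions. Of 11 tested, 1 was called higher and 1 lower against Dlx3 KO skin (median log2 fold change -0.77). Pgf, placental growth factor and a ligand of Flt1, was at 0.913, 12.0, 4.71, 4.99 and 5.81 RPKM in tumors and 0.831, 0.666 and 0.785 RPKM in Dlx3 KO skin (log2 fold change 1.997 ± 0.52, SE, limma adjusted p = 0.0408). The lowest tumor, tumor 1, was just above the skins. Cxcl12, a chemokine that guides endothelial and blood cells, was at 11.3, 1.31, 1.49, 5.58 and 1.30 RPKM in tumors and 19.9, 13.1 and 17.5 RPKM in Dlx3 KO skin (log2 fold change -2.32 ± 0.59, SE, limma adjusted p = 0.0379). Of 11 fits without 1 library, Pgf passed in 1 (without tumor 1, adjusted p = 0.000315) and Cxcl12 in 3. Vegfd, a lymphatic growth factor, and Vegfb did not pass (log2 fold change -1.43 and -1.21, adjusted p = 0.0609 and 0.0816).

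Further endothelial genes outside the 38 lay mostly below 0 as well. Of 22 tested, 2 fell and 0 rose, with a median log2 fold change of -0.59, and 20 were below 0. The adhesion receptors Adgrf5 (1.49 ± 0.207 and 3.31 ± 0.581 RPKM in tumors and Dlx3 KO skin, SD, n = 5 and 3) and Adgrl4 (1.01 ± 0.430 and 2.39 ± 0.227 RPKM) fell. Grrp1 (adjusted p = 0.0554) and Gpihbp1, which holds lipoprotein lipase on capillaries (adjusted p = 0.0564), did not pass. Among 12 genes of pericytes and vascular smooth muscle, the cells that wrap vessels, 2 fell and 0 rose. They were Abcc9, a potassium channel subunit (0.651 ± 0.195 and 2.19 ± 0.468 RPKM in tumors and Dlx3 KO skin, limma adjusted p = 0.0325), and the filament protein Des (6.11 ± 4.76 and 228 ± 70.2 RPKM, adjusted p = 6.6e-05). Des is also a gene of skeletal muscle, whose 14 markers all fell in the same tumors. The summed level of the 12 genes was 55.52 to 128.3 RPKM in tumors and 289.0 to 406.8 RPKM in Dlx3 KO skin. Des made up most of it in each of these skins, at 278.1, 147.5 and 257.4 RPKM. The sum therefore does not show a difference of pericytes apart from that gene. Myh11 and Cspg4 of that list did not pass (log2 fold change -1.50 and -1.13). Of the 11 fits without 1 library, Adgrf5 passed in 4, Adgrl4 in 3, Abcc9 in 5 and Des in 11.

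Tumors were also compared with WT skin. Tek and Ramp2, both genes of the resting vessel, fell, and 0 vessel genes rose. Tek was the single gene called against both skins, in comparisons that share the tumors. Of 37 genes, 2 were lower and 0 higher, where 12.0% and 3.56% of all genes tested were. At an unadjusted p under 0.05 there were 9 lower and 1 higher of 37. Of all 14233 genes tested, 4203 had such a p in either direction, a share near that of the vessel genes. The median log2 fold change was -0.27 (all genes -0.14) with 27 of 37 below 0, and quantile normalization turned it to 0.08 with 17 below 0. Tumors lay below WT skins without overlap in Tek, Cldn5 and Ptprb, 3 of 37, and above in 0, where 12.2% and 3.89% of all genes tested did so.

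Tek was at 0.533 to 1.42 RPKM in tumors and at 2.44, 3.81 and 3.49 RPKM in WT skins 1 to 3, and every tumor was below every WT skin. Its log2 fold change was -1.60 ± 0.26 (SE, limma adjusted p = 0.00212). The call held in all 24 alternatives in which Tek was tested, the replicate block, the run term and the fit without the library labelled WT skin 2 included. One of the 24, the first run alone, rests on 1 tumor. Ramp2 was at 24.7 RPKM in tumor 1 and 4.28 to 8.44 RPKM in tumors 2 to 5, against 20.0, 26.9 and 27.4 RPKM in WT skin. Its log2 fold change was -1.68 ± 0.49 (SE, limma adjusted p = 0.0402), and it passed in 2 of the 11 fits without 1 library, with an adjusted p of 0.110 without the library labelled WT skin 2.

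Lyve1 was at 0.978 to 4.20 RPKM in tumors and at 3.45, 5.21 and 4.13 RPKM in WT skin, with tumor 1 among the skins (log2 fold change -1.02, adjusted p = 0.0947). Without tumor 1, 9 of 37 genes were called lower against WT skin (Cldn5, Esam, Lyve1, Mmrn2, Plvap, Ptprb, Ramp2, Tek and Vwf) and 1 higher (Esm1). Of all genes tested, 18.7% and 4.37% were so called. Without WT skin 1, which had the lowest vessel sum of the skins, 4 of 37 were called lower (Esam, Mmrn2, Robo4 and Tek) and 0 higher. Of all genes tested 10.7% were then lower, a share near that of the vessel genes, and 1.94% higher. All 4 tip genes were above 0 against WT skin, with log2 fold changes of 1.07 for Esm1, 0.82 for Apln, 0.54 for Dll4 and 0.36 for Angpt2, and adjusted p of 0.139 to 0.316. All WT skins are in the first run and 4 of the 5 tumors in the second. In the first run alone, where tumor 5 is the single tumor, Esm1 was at 1.11 and Apln, Dll4 and Angpt2 were below 0 (-0.069, -0.194 and -0.121). With the run as a term all 4 stayed above 0 (0.143 to 1.27). In WT skin Esm1 was at 0.460, 0.583 and 0.489 RPKM and Apln at 0.388, 0.362 and 0.616 RPKM. Dll4 was there at 0.473, 0.869 and 1.10 RPKM and Angpt2 at 0.625, 0.691 and 1.02 RPKM. Of the growth factors, 2 fell and 1 rose against WT skin, of further endothelial genes 3 fell and of pericyte genes 2 fell. Several of these calls rested on single libraries. In the 11 fits without 1 library, Pgf passed in 1, Cxcl12 in 2, Adgrl4 in 3, Abcc9 in 10 and Des in 11. Further lymphatic genes gave 0 of 6.

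**Figure D5:**
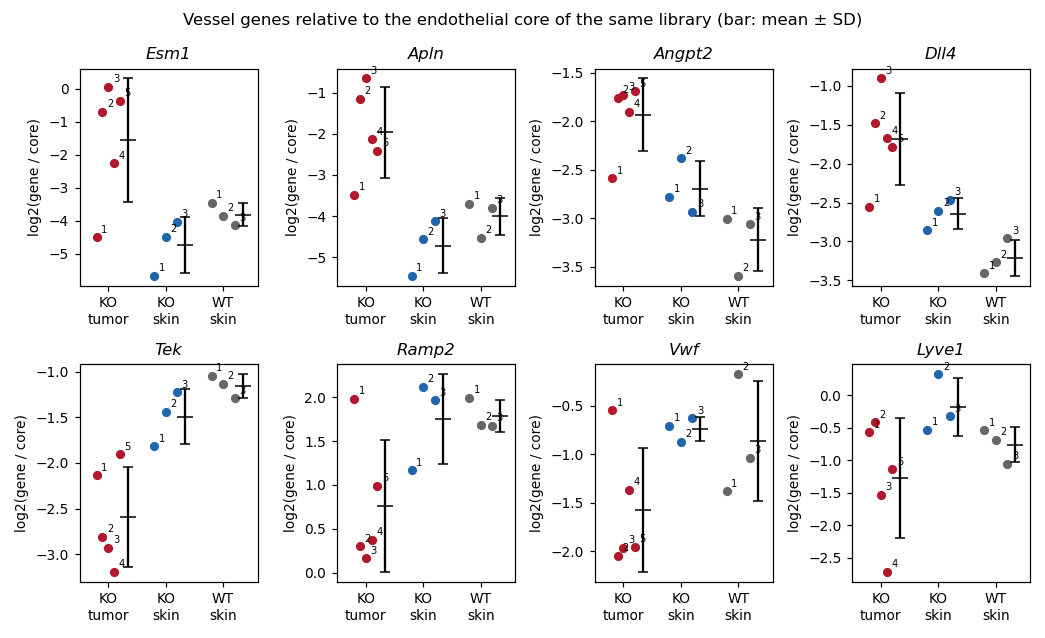
Log2 of each named vessel gene over the geometric mean of 7 core endothelial genes in the same library, for tumors, Dlx3 KO skin and WT skin. Apln lies higher in all 5 tumors (-3.48 to -0.66) than in any skin (at most -3.69), and Tek lies lower in all 5 tumors (-3.19 to -1.91) than in any skin (at least -1.82).

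To set vessel content aside, each gene was described relative to the endothelial core of its own library. The core is the geometric mean of Pecam1, Cdh5, Esam, Tie1, Cldn5, Egfl7 and Clec14a. It came to 6.245, 3.910, 4.068, 6.506 and 2.156 RPKM in tumors, 7.438, 6.857 and 8.696 RPKM in Dlx3 KO skin and 5.022, 8.363 and 8.568 RPKM in WT skin. This is a description without a test, and 7 of the 38 genes make up the core themselves. Against Dlx3 KO skin, 3 genes were higher without overlap (Flt4, Emcn and Apln), 2 were lower (Tek and Ptprb) and 33 overlapped. Against WT skin, 5 were higher (Flt4, Eng, Apln, Angpt2 and Dll4), 1 was lower (Tek) and 32 overlapped. Divided by the same core, 24.7% of all 14233 genes tested were higher without overlap and 3.76% lower against Dlx3 KO skin, and 19.7% higher and 4.92% lower against WT skin. The core itself was lower in every tumor than in every Dlx3 KO skin, and the counts of vessel genes that were higher on this scale, 3 and 5 of 38, are below the shares of all genes.

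Relative to the core, Apln was higher by a mean of 2.75 on the log2 scale in tumors than in Dlx3 KO skin and by 2.04 than in WT skin. Esm1 differed by 3.17 and 2.25 in the same order, with tumor 1 at -4.50 among the skins (-5.66 to -3.45). Dll4 was higher by 0.96 and 1.53 and Angpt2 by 0.77 and 1.29. Tek differed by -1.10 from Dlx3 KO skin and by -1.44 from WT skin. Ramp2 differed by -0.99 and -1.02, Lyve1 by -1.10 and -0.52 and Vwf by -0.84 and -0.71, and all 3 overlapped with the skins. Each of these genes had the same sign in the RPKM as deposited, with Angpt2 against Dlx3 KO skin as the exception (-0.04).

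The 2 kinds of treated skin, Dlx3 KO and WT (n = 3 each), were compared for vessel genes. Dlx3 KO skins had Xist at 10.1 RPKM or more and Ddx3y, a gene of the Y chromosome, at most at 0.157 RPKM. WT skins 1 and 3 had Xist at 0.466 and 0.149 RPKM and Ddx3y at 15.7 and 11.1 RPKM. All WT skins were in the first run, and Dlx3 KO skin 1 was in the second. An effect of Dlx3 alone cannot be told apart here from these differences. No vessel gene passed, in the deposited scaling or in any alternative. Of all genes tested 0.0% passed with all libraries, and 1.17% were lower and 0.443% higher without the library labelled WT skin 2. With limma, 3 of 37 genes had an unadjusted p under 0.05, all higher in Dlx3 KO skin: Flt1 (log2 fold change 0.75, adjusted p = 0.374), Sox7 (1.64, adjusted p = 0.568) and Mmrn1 (0.88, adjusted p = 0.533). Of all 14233 genes tested, 1229 had such an unadjusted p in either direction, a share near that of the vessel genes. Of 37 genes 26 were above 0, with a median log2 fold change of 0.20 (all genes 0.06). Every Dlx3 KO skin was above every WT skin in 7 genes (Flt1, Emcn, Sox7, Plvap, Mmrn1, Angpt2 and Vcam1) and below in 0, where 11.3% and 5.1% of all genes tested were.

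Flt1 was at 7.18, 4.08 and 3.40 RPKM in Dlx3 KO skin and 2.53, 2.53 and 2.65 RPKM in WT skin. Mmrn1 was at 1.14, 1.46 and 1.37 RPKM in Dlx3 KO skin and 0.344, 0.447 and 0.704 RPKM in WT skin. Sox7 was at 18.4, 13.9 and 16.2 RPKM in Dlx3 KO skin and at 3.50, 11.6 and 2.63 RPKM in WT skins 1 to 3 by label. The library labelled WT skin 2, whose Dlx3 was as low as in Dlx3 KO skin, was nearest to it in Sox7. The summed keratinocyte markers were at 31430 to 32710 RPKM in Dlx3 KO skin and 6493, 52090 and 6694 RPKM in the WT skins. WT skins 1 and 3 were thus below Dlx3 KO skin in both Sox7 and that sum, while the library labelled WT skin 2 was below it in Sox7 and above it in the sum. Tumor 5, lowest in Sox7 among tumors, was lowest in that sum (16470 RPKM) and in Krt1 and Krt10 (299.1 and 463.3 RPKM). It was highest among tumors in the basal keratin Krt5 (4286 RPKM). The part of keratinocytes in the Sox7 level was not tested. Plvap was at 44.7, 46.0 and 54.9 RPKM in Dlx3 KO skin and 27.7, 38.5 and 37.8 RPKM in WT skin, a log2 fold change of 0.49 (adjusted p = 0.853).

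The lymphatic and adhesion genes of skin were described likewise. Lyve1 was at 5.12, 8.55 and 6.95 RPKM in Dlx3 KO skin and 3.45, 5.21 and 4.13 RPKM in WT skin (adjusted p = 0.737), and Flt4 at 0.649 to 0.773 and 0.282 to 0.770 RPKM. Vcam1 was at 2.30, 2.93 and 2.78 RPKM in Dlx3 KO skin and 1.94, 2.08 and 1.70 RPKM in WT skin. Sele was at 1.22, 0.321 and 1.25 RPKM in Dlx3 KO skin and 0.215, 0.552 and 0.989 RPKM in WT skin, and Selp at 2.25, 0.878 and 1.54 against 0.614, 0.909 and 1.25 RPKM. Tek, the gene called in both tumor comparisons, was at 2.11, 2.53 and 3.71 RPKM in Dlx3 KO skin and 2.44, 3.81 and 3.49 RPKM in WT skin, with overlap (log2 fold change -0.20, SE 0.29). Of growth factors, further endothelial, further lymphatic and pericyte genes, 0 were called between the skins.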

How the data were processed

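Ribosomal RNA-depleted libraries of mouse skin and skin tumors were read from 1 end over 50 bp, per the labels' protocols. bcl2fastq 2.20.0.422, TopHat2 2.1.1, Bowtie, Partek and mm10 are named in the submitters' processing notes, without versions for Bowtie and Partek. RPKM values per gene were computed by the authors, per the file headers. Gene counts were not used here, and the counts of alignments per library are from the authors' deposited sample sheet. The annotation, and whether reads were counted by strand, are not given in the sources used here. RPKM are relative, so a change in abundant transcripts moves all others.

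Of 24974 genes, the 14233 with a mean of at least 0.5 RPKM were tested as log2(RPKM + 0.5). The 3 groups were fitted together in limma 3.58.1 (R 4.3.3, 8 residual degrees of freedom, trended and robust eBayes). Tests were two-sided, with Benjamini-Hochberg adjustment within each comparison over all genes tested, and adjusted p under 0.05 counted as a call. The code was tested on simulated data. Per-library values are given for members called in a comparison and for tip, lymphatic and adhesion genes. Values of other members and of libraries named for standing apart were chosen after they were seen. Of each list outside the 38, at most 4 genes with the smallest p in tumor against Dlx3 KO skin are named. The members and lists were chosen with earlier results of these data known. Alternatives covered pseudocounts of 0.1 and 1, no filter, a filter of 2 RPKM, scaling, limma settings, library weights, run, a replicate block, Xist level and each library left out. Those chosen after seeing the data were each run alone and leaving out the 2 libraries high in Rn45s. Gene positions are from GENCODE M21 on mm10, promoters from RefSeq on GRCm38.p6. Python 3.11.15, pandas 2.3.3, numpy 2.4.6 and matplotlib 3.10.9 made the tables and figures.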

Additional observations from a re-analysis of the deposited data

Results flagged for a closer look

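Over the 5 tumors, the gap between the highest or lowest tumor and its neighbour was tested for each of the 38 vessel genes, and 4 genes had a tumor far from the others. Chance flags about 1 in 20 groups, and genes of 1 library are not independent. Tek was at 1.42 RPKM in tumor 1, above 0.533 to 0.712 RPKM in the other 4 tumors. Ramp2 was at 24.7 RPKM in tumor 1, above 4.28 to 8.44 RPKM in the other 4. Icam2 was at 3.96 RPKM in tumor 4, above 1.05 to 1.89 RPKM in the other 4, and Vcam1 was at 5.87 RPKM in the same tumor, above 0.822 to 1.96 RPKM in the other 4.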

How the results depend on the processing

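Against Dlx3 KO skin, 3 genes were lower and 0 higher. The lower count was 1 with the filter at 2 RPKM (19 genes left to test), the compared groups alone, the Xist level as a term, and without WT skin 1 and tumor 5, where 6.24%, 5.08%, 3.65% and 3.99% of all genes tested were lower. It was 7 in the first run alone (1 tumor; 10.3% of all genes), 0 in the second (1 Dlx3 KO skin; 1.36%) and 20 with library weights (33.7%). Leaving out 1 library gave 0 to 14 lower (2.19% to 17.7% of all genes) and 0 to 2 higher (0.246% to 2.42%). Quantile normalization and library weights each gave 2 higher (3.42% and 8.2%). Against WT skin, 2 were lower and 0 higher. The lower count was 1 with the filter at 2 RPKM (1218 of 11075 genes lower) and with no filter, run as a term, the Xist level as a term or only the compared groups (4.08% to 10.8% of all genes). It was 4 without WT skin 1 and tumor 5 (9.44%) and 5 in the first run alone (9.59%). Leaving out 1 library gave 1 to 9 lower (6.2% to 18.7%) and 0 to 1 higher (1.94% to 5.37%), and quantile normalization 4 higher (10.3%). The causes were not tested. Correlations of same-numbered libraries were -0.41 to 0.19, and those of differently numbered libraries -0.28 to 0.38. These ranges cannot tell whether numbers pair samples. A replicate block gave 0 lower against Dlx3 KO skin (2.06% of all genes) and 1 against WT skin (4.45%). Between the skins 0 vessel genes were called in any repeat, while of all genes 166 were lower and 63 higher without the library labelled WT skin 2, 13 higher without tumor 5 and 2 higher with library weights. Of the repeats for single genes, 3680 kept their side of the threshold, 105 gained a call, 177 lost one and 0 called genes changed sign. These counts pool vessel genes with named genes outside that set, over all comparisons. They include genes without a call at the start, which cannot lose one. Against Dlx3 KO skin, Tek was called in 22 of 25 repeats, Lyve1 in 16 of 26 and Flt1 in 5 of 26. Against WT skin, Tek was called in 24 of 24 and Ramp2 in 10 of 25. The low levels of Esm1, Apln, Sele and Prox1 limit what can be seen of them, since read counts per gene were not used.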
